A study of Caenorhabditis elegans with 2 samples.

Results

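The 9 genes described here are heterochronic genes of Caenorhabditis elegans, the regulators that set when each larval cell fate is executed. They are lin-14, lin-28, lin-29, lin-41, lin-42, lin-46, lin-66, hbl-1 and daf-12, picked by symbol from the annotation of the WBcel235 assembly, where all 9 were found among 19973 protein coding genes on the nuclear chromosomes. Chromatin immunoprecipitation followed by sequencing (ChIP-seq) had been performed on whole L3 larvae, both sexes pooled, of strain OP353. Every animal carried the unc-119(tm4063) mutation on chromosome III and the integrated transgene wgIs353, which expresses nhr-77, a nuclear hormone receptor gene, as an eGFP fusion. The antibody label names nhr-77, so whether the tag or the receptor was the antigen is not settled by the labels. There were 2 biological replicates of a single group, no other condition and no second stage, so all values below are descriptions without a test. The 9 genes were chosen with earlier results of these data known, so shares set beside theirs are descriptions only.

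Heterochronic genes act in sequence. LIN-14 and LIN-28 hold early larval fates until the microRNA lin-4 represses both, and HBL-1 governs the passage from L2 to L3 fates. Later, the microRNA let-7 represses lin-41, which releases LIN-29, the zinc finger factor that starts adult differentiation of the epidermis. LIN-42, related to the clock protein Period, and DAF-12, a steroid-responsive nuclear receptor, tie this order to the molting cycle and to the decision for dauer arrest. L3 larvae are therefore animals in which the early genes have normally been turned down and the late ones have yet to act.

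The data were peak lists on ce11, which has the same sequence as WBcel235. The authors deposited a relaxed list of 30000 entries for each replicate and for both replicates pooled, and a list of 590 peaks that passed an irreproducible discovery rate (IDR) threshold, which compares how replicates order their peaks. Each entry has a summit, the position of its highest enrichment, and a signal value, which is the authors' own ChIP enrichment over control. Signal ran from 5.53 to 427 in the pooled list with a median of 8.27, from 3.27 to 214 in replicate 1 and from 2.91 to 194 in replicate 2. Since the scale differed between lists, summits are given by rank within a list, with rank 1 the strongest. The IDR list was exactly the 590 highest entries of the pooled list. The read depth is unknown, and most relaxed entries are weak by construction. The region of nhr-77 itself held 0 pooled summits, 1 in replicate 1 and 0 in replicate 2. In whole animals, strong occupancy in few cells and weak occupancy in many cannot be told apart.

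The region of a gene was its annotated span plus 2 kb upstream. A promoter window ran from 1000 bp upstream to 500 bp downstream of any annotated 5′ end, and worm 5′ ends may be trans-splice sites rather than starts of transcription. Summits of different lists within 100 bp were taken as matched.

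The sequence within 100 bp of 4 member summits show the DNA that was enriched. Those of lin-66 and lin-42 are the highest ranked summits of all members, that of lin-14 heads the gene with the densest cluster of summits, and that of daf-12 is the strongest of the nuclear receptor gene. All are plus strand sequence of WBcel235 from RefSeq with the summit in the middle. Capitals mark GAGAGA, or AGTGCA in daf-12, on either strand.
lin-66, chrIV:13887625-13887825: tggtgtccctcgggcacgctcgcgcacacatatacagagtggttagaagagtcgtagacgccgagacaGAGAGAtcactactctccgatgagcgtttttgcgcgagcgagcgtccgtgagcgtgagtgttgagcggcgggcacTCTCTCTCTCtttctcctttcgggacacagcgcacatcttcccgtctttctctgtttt
lin-42, chrII:1246924-1247124: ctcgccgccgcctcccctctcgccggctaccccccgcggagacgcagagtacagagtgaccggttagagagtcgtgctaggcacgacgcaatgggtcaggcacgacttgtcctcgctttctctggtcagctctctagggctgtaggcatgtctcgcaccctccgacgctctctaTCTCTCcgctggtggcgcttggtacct
lin-14, chrX:11465169-11465369: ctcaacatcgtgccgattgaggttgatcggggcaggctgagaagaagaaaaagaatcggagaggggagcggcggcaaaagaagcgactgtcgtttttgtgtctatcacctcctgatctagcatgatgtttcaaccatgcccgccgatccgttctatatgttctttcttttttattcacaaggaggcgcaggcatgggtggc
daf-12, chrX:10637559-10637759: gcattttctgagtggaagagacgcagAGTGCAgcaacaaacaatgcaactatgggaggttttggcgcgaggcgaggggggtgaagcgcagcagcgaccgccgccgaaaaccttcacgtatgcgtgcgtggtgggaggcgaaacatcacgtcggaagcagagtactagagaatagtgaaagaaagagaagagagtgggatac
GAGAGA was found 4 times in the lin-66 window, with 3 of the matches overlapping on the minus strand, and 1 time in that of lin-42. The lin-14 window held none of the 4 motifs searched, and the daf-12 window held AGTGCA, a hexamer used by DAF-12. All 4 windows were rich in G and C, at 56.2% for lin-66, 63.7% for lin-42, 50.2% for lin-14 and 54.2% for daf-12, beside a median of 35.3% over all pooled summits and 42.3% over IDR summits.

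By their strongest summit the 9 genes were spread widely. IDR summits lay in the regions of lin-66, lin-42 and lin-41, which makes 3 of 9 members, a set chosen with earlier results of these data known. Of all protein coding genes 713 had an IDR summit in the region, or 3.57%, and of the 10704 genes with regions between 3.88 and 33 kb, the range of the members, 4.1%. Ranks of the strongest pooled summit were 228 for lin-66, 334 for lin-42 and 419 for lin-41. Next came lin-14 at 1042, lin-28 at 1935 and daf-12 at 3139, followed by lin-46 at 4012, lin-29 at 4659 and hbl-1 at 5635. The median of the 9 was 1935. A pooled summit was held by 66.7% of all protein coding genes and by 78.0% of those of the members' region length, and the median best rank over these holders was 8926.5 and 8084. With genes that have no summit placed last, the medians were 16913 and 11823.5. Each of the 9 ranked better than 8084. The genes in that length range had a median region of 5.43 kb, beside 9.7 kb for the members. Among genes with a region of at least 10 kb, those with a summit had a median best rank of 5636. The members of that length, lin-14, lin-29, lin-42 and daf-12, ranked better than 5636. Of all 19973 protein coding genes, 23.7% ranked ahead of hbl-1, the last, and 1.42% ahead of lin-66, the first.

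The replicates did not give the same order. In replicate 1 the best ranks were 247 for lin-66, 608 for lin-14, 1293 for lin-42, 1704 for daf-12, 2135 for lin-41, 2823 for lin-29, 2889 for lin-46, 4357 for lin-28 and 7658 for hbl-1. In replicate 2 they were 206 for lin-42, 258 for lin-41, 282 for lin-66, 1051 for daf-12, 1370 for lin-14, 1636 for hbl-1, 1702 for lin-28, 3100 for lin-29 and 15266 for lin-46. Only lin-66 lay within the first 590 of both. The places of lin-42 and lin-41 in the upper tier came with replicate 2: replicate 1 alone put a single member, lin-66, among its 590 highest, and replicate 2 alone put 3 there. Of all protein coding genes, 3.46% had such a summit in the region with replicate 1 alone and 3.37% with replicate 2 alone. The median best rank of the members was 2135 in replicate 1 and 1370 in replicate 2. Of coding genes in the members' length range, 81.2% and 80.2% held a summit, and over these the median was 8339 and 8182.5.

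**Figure D1:**
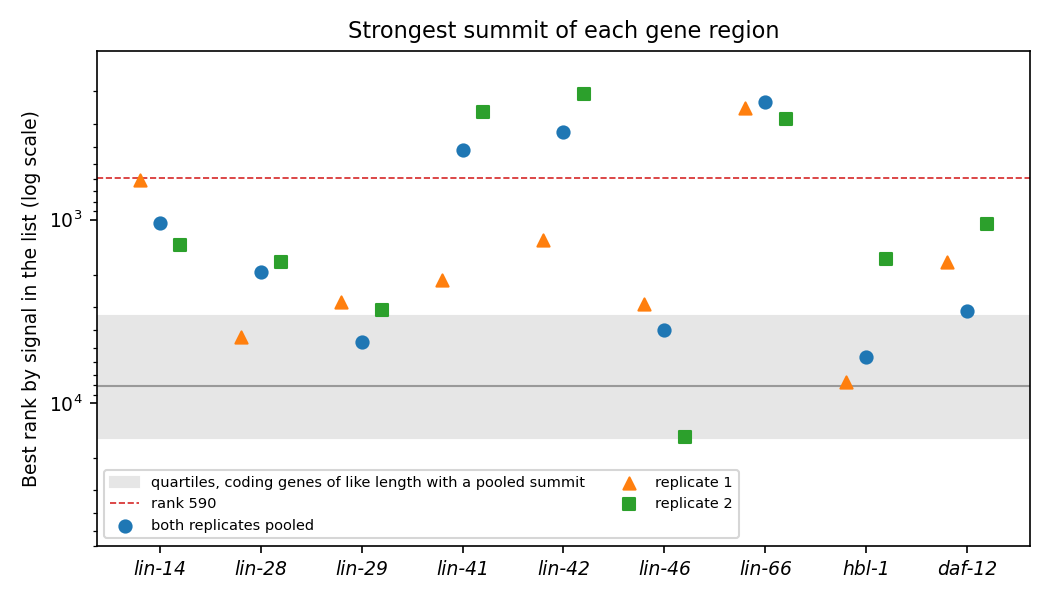
Best rank by signal (log scale, strongest at the top) of the summits in each gene region, in the pooled list and in each replicate. The dashed line is rank 590, and lin-66 alone has all 3 symbols above it. The grey line and band are the median of 8084 and the quartiles of the coding genes in the members' range of region length that hold a pooled summit.

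Among regulators of the early fates, lin-66 stood first. LIN-66 is known to restrain lin-28 through its 3′ UTR. The gene lies on chromosome IV from 13888079 to 13893986 on the plus strand. Its peak, from 13887553 to 13887896, reached a signal of 43.3 in the pool, and its summit was in intergenic sequence 354 bp upstream of the first 5′ end. Replicate 1 placed its summit 7 bp away with a signal of 22.7, and replicate 2 placed it 5 bp away with a signal of 21.1. Rank and position thus coincided closely between the replicates. This was also the sole IDR summit in a promoter window of any member, 1 of 9, where 2.5% of coding genes had such a summit. The other 6 pooled summits of lin-66 ranked between 4866 and 19441. The strongest of them, 12.8, was in the 3′ UTR, and replicate 2 had a summit 56 bp from it at rank 803 (signal 14.2). The region also holds 15 annotated piRNA genes, none of them within 500 bp of the strongest summit.

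LIN-28 is the RNA-binding protein that blocks maturation of let-7. Its gene, on the minus strand of chromosome I from 8407630 to 8410804, held 4 pooled summits. The strongest, at 8409963, was 43 bp upstream of the internal 5′ end at 8409920, with a signal of 17.7. Both replicates matched it, replicate 1 at rank 4357 (signal 8.26) and replicate 2 at rank 3716 (signal 8.37). The promoter of the longer transcript was less even. A summit 548 bp upstream of 8410804 ranked 5692 in the pool and 1702 in replicate 2, where its signal was 10.9, and replicate 1 had no summit in that window. A further summit 1331 bp upstream, rank 12012, lay also 287 bp upstream of the neighbouring gene F02E9.7.

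LIN-46, related to the scaffold protein gephyrin, acts downstream of LIN-28 to allow later larval fates. The gene, on chromosome V from 12968855 to 12970730, held 1 pooled summit, 877 bp upstream of its 5′ end, with a signal of 13.7 and rank 4012. It ranked 2889 in replicate 1 (signal 9.46) and 15266 in replicate 2 (signal 4.71). The same summit lies 4 bp downstream of a 5′ end of the neighbouring gene R186.8, so the enriched place cannot be assigned to lin-46 rather than to that gene.

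LIN-14 is the nuclear DNA-binding protein whose fall ends the first larval stage. Its gene, on the plus strand of chromosome X from 11465560 to 11485871, had the densest set of summits. The region of 22.3 kb held 24 pooled summits, and each replicate list also held 24. That is 1.08 summits per kb. Among coding genes with a region of at least 10 kb, 0.53% had more per kb in the pooled list and 0.265% in each replicate. In the pooled list hbl-1 was close, at 1.05 per kb. Of the 24, 6 were within the first 3000 of the pool and 14 within the first 6000, with a median rank of 4957. None reached the IDR list. The GC content of the region was 39.0%, a value exceeded by 10.7% of regions of at least 10 kb, and its part in the count was not tested.

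Summits of lin-14 were spread along the gene rather than gathered at its start. Introns held 20 of the 24, coding sequence 2, the 3′ UTR 1 and the upstream sequence 1. The upstream summit was the strongest of the gene in the pool, 291 bp before the 5′ end at 11465560, with a signal of 23. Its position was not shared: the nearest summit of replicate 1 was 105 bp further upstream at rank 608 and a signal of 16.2, and the nearest of replicate 2 was 253 bp downstream at rank 2742 and a signal of 9.24. The summit lies inside the noncoding RNA genes T25C12.8 and T25C12.9, annotated on opposite strands. An intronic summit at 11477997, ranked 1440 with a signal of 19.9, was closer in rank between the replicates, at rank 2265 (10.2) in replicate 1 and 1373 (11.7) in replicate 2. Near the internal 5′ end at 11480361, which starts the shorter transcript, a summit 112 bp upstream ranked 1893 in the pool, 14685 in replicate 1 and 3995 in replicate 2. In all, 7 of the 24 were matched in both replicates, more than in any other member.

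**Figure D2:**
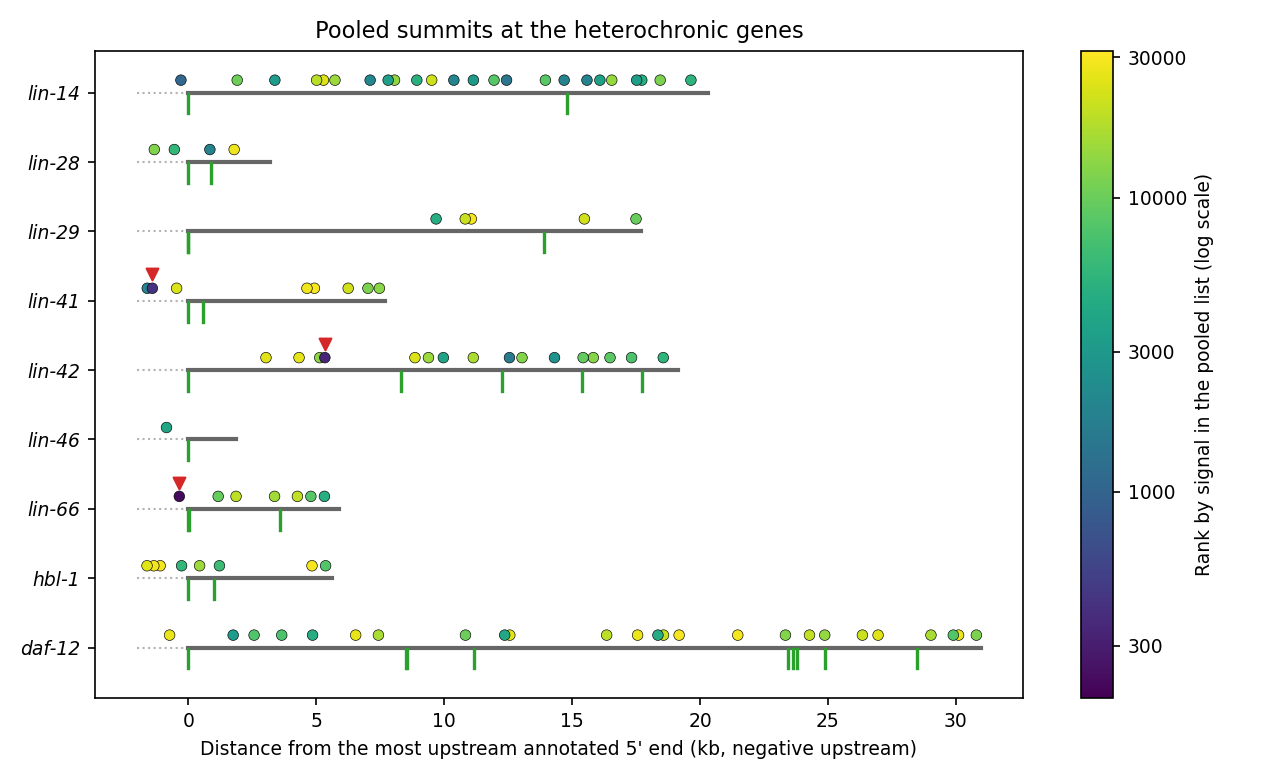
Pooled summits along each gene, drawn 5′ to 3′, with distance from the most upstream annotated 5′ end in kb on the x axis. Grey bars are gene spans, dotted lines the 2 kb upstream, green ticks annotated 5′ ends, circles summits coloured by rank on a log scale, and red triangles the 3 IDR summits: upstream of lin-66 and lin-41 and inside lin-42.

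HBL-1, the Hunchback-like zinc finger factor and a target of let-7 family microRNAs, had the lowest ranked leading summit of the 9 in the pool. The gene lies on chromosome X from 5822142 to 5827755 and held 8 pooled summits, of which the strongest, 265 bp upstream of the first 5′ end, had a signal of 12.2 and rank 5635. Replicate 2 matched it at rank 3910 (signal 8.22). Replicate 1 had only 2 summits in the whole region, both in the 3′ UTR. Replicate 2 had its 2 highest within the promoter windows, 359 bp downstream of the first 5′ end at rank 1636 and 213 bp downstream of the internal 5′ end at rank 1672, each with a signal of 11.0. No pooled summit of hbl-1 was matched in both replicates, while each of the other 8 members had at least 1.

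LIN-41 is a TRIM-NHL RNA-binding protein that keeps LIN-29 in check until let-7 rises. The gene is on the minus strand of chromosome I from 9334800 to 9342496. Its IDR peak, from 9343731 to 9344074, reached a signal of 33.4, with its summit 1407 bp upstream of the outer 5′ end, outside the promoter window. In replicate 2 the matched summit ranked 258 with a signal of 21.8, and in replicate 1 it ranked 2135 with a signal of 10.4, 81 and 61 bp from the pooled summit. A neighbouring pooled summit 1606 bp upstream ranked 1987 and was matched in neither. The window of the outer 5′ end itself held only a summit of rank 23523, 459 bp upstream. With 1 kb upstream in place of 2 kb, the best rank of lin-41 dropped to 11558, so its place among the leading members rests on the distal site.

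LIN-29, the effector at the end of the pathway, had few summits for its length. The region of 19.7 kb on chromosome II held 5, or 0.254 per kb, and 60.7% of coding genes with a region of at least 10 kb had more per kb. None of its 3 annotated 5′ ends had a pooled summit in the window. The strongest pooled summit, at 11925660, was intronic, 4222 bp upstream of the internal 5′ end at 11921438, with a signal of 13.0. It ranked 8705 in replicate 1 and 15656 in replicate 2. A summit 88 bp upstream of the outer 5′ end at 11935343 was listed only by replicate 2, at rank 3100 (signal 8.88), and in neither of the other relaxed lists.

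LIN-42 oscillates with the molts and is transcribed from several start sites. The gene lies on the minus strand of chromosome II from 1233236 to 1252359, has 5 annotated 5′ ends, and held 16 pooled summits. Its IDR peak, from 1246852 to 1247195, had a signal of 36.9. The summit was in an intron of the long transcripts, 5335 bp downstream of their 5′ end at 1252359 and 2989 bp upstream of the 5′ end at 1244035. It lies inside 2 noncoding RNA genes on opposite strands, F47F6.13 from 1246968 to 1247045 and F47F6.15 from 1247011 to 1247153. Replicate 2 placed it at rank 206 with a signal of 24.5, 7 bp away, and replicate 1 at rank 2591 with a signal of 9.79, 39 bp away.

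Annotated 5′ ends of lin-42 differed among themselves. The outermost, at 1252359, had no summit of any list in its window. At 1244035 the window held no pooled summit, and the best ranks there were 13289 in replicate 1 and 7023 in replicate 2. The 5′ end at 1240101 had a summit 293 bp downstream in coding sequence. It ranked 1605 in the pool with a signal of 19.1, 504 in replicate 2 with 16.7, and 23235 in replicate 1 with 3.95. That summit was thus among the strong entries of a single replicate. At 1236969 and 1234625 the best pooled ranks were 9441 and 7573. The GC content of the lin-42 region was 40.7%, exceeded by 3.91% of regions of at least 10 kb.

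DAF-12 is a receptor of the same family as the labelled target, bound by dafachronic acids, and it regulates microRNAs of the let-7 family. Its gene, on chromosome X from 10635908 to 10666875, is the longest member and held 25 pooled summits, 20 of them intronic. At 0.758 per kb it was exceeded by 4.77% of coding genes with a region of at least 10 kb, with a GC content of 35.3%, which 50.4% of them exceeded. The strongest summit, 1751 bp downstream of the first 5′ end, had a signal of 14.9, with rank 2091 (10.2) in replicate 2 and 14922 (5.08) in replicate 1. Of its 9 annotated 5′ ends 6 had a pooled summit in the window, none ranked better than 10039. Replicate 2 had a summit 16 bp downstream of the 5′ end at 10664406 at rank 1948 with no pooled match in that window. The strongest entries of the single replicates were intronic and at different places, rank 1704 at 10640749 in replicate 1 and rank 1051 at 10654424 in replicate 2.

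The 9 regions together held 98 pooled summits in 130 kb, or 0.752 per kb, beside 0.299 per kb of the nuclear genome. The median over members was 0.773 per kb and over all protein coding genes 0.264, or 0.255 for those of the members' region length. In replicate 1 the medians were 0.698 and 0.276, and in replicate 2 they were 0.580 and 0.275. Of the members 8 were above the pooled 0.255, with lin-29 the exception at 0.254. At 0.258, lin-46, with its 1 summit, was barely above. The 0.255 is the median over all regions between 3.88 and 33 kb, not a match to the length of each gene. Since lin-14 alone gave 24 of the 98, the summits per kb over the regions together were 0.685 without it. GC content was higher as well: the median region GC was 38.3% for members and 35.7% for all coding genes, and its part in the counts was not tested.

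**Figure D3:**
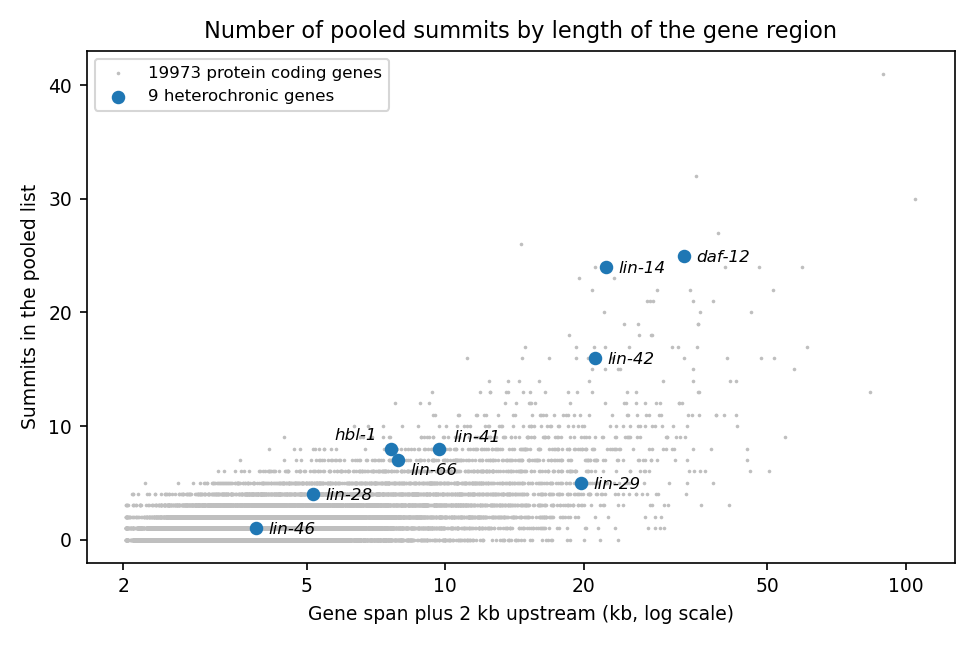
Number of pooled summits against region length in kb (log scale) for 19973 protein coding genes (grey) and the 9 heterochronic genes (blue). At 22.3 and 33 kb, lin-14 and daf-12 held 24 and 25 summits, while lin-29, at 19.7 kb, held 5.

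Most member summits were inside genes and away from 5′ ends. Introns held 59 of the 98, upstream sequence 13, coding sequence 12, 3′ UTRs 12 and 5′ UTRs 2. In a promoter window of their own gene lay 21 of 98, or 21.4%, and in that of any protein coding gene 22.4%. Over all pooled summits in coding gene regions the share was 44.1%. Member regions are longer, with a median of 9.7 kb beside 4.03 kb for all coding genes, and the part of length in this share was not tested. Introns of lin-14 and daf-12 accounted for 40 of the 59 intronic summits. Counted by 5′ end, 20 of the 29 annotated 5′ ends of the members had a pooled summit in the window and 9 had none, beside 44.7% of all coding 5′ ends with one. Some of these windows overlap, so a summit can serve several 5′ ends.

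Of the 98 pooled summits, 54 were matched in replicate 1, 41 in replicate 2, 19 in both and 22 in neither. The share matched in both, 19.4%, compares with 13.9% of pooled summits in coding gene regions, and without lin-14, left out after the data were seen, it was 12 of 74, or 16.2%. Ranks at the 19 places were barely related, with a Spearman rho of 0.13 across summits, which share genes and were selected for their pooled signal. At 10 of the 19 the rank was better in replicate 2 and at 9 in replicate 1. Both replicates put only 4 within their first 3000: the upstream summits of lin-66 and lin-41, the IDR summit of lin-42 and the lin-14 summit at 11477997.

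**Figure D4:**
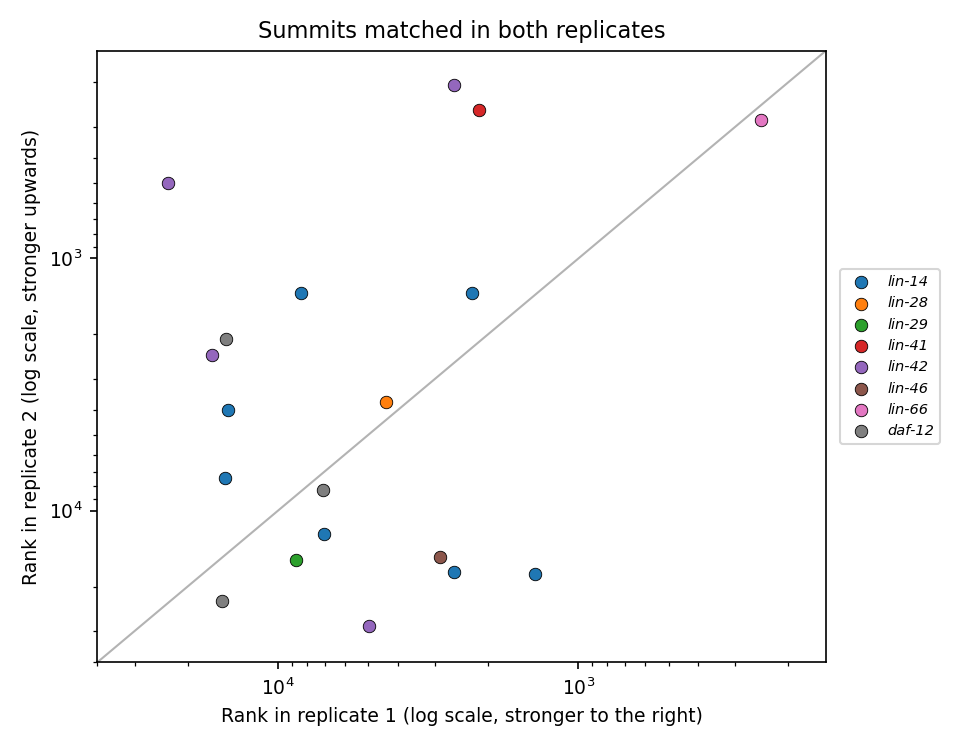
Rank in replicate 1 against rank in replicate 2 (log scales, stronger to the right and up) for the 19 member summits matched in both, coloured by gene. The lin-66 summit, at ranks 247 and 282, lies near the line of equal rank, while those of lin-42 and lin-41 at the top were stronger in replicate 2.

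The median rank of member summits was 11641 beside 14946.5 for pooled summits in coding gene regions, and 13.3% were within the first 3000 beside 9.88%. Without lin-14 the latter share was 9.46%, below that of all. Median GC within 100 bp of the summit was 39.1% for members and 35.8% for pooled summits in coding gene regions.

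Motif matches are letters in these windows and not evidence of a site. Each window of 100 bp on either side of a summit was searched on both strands and counted once per motif. AGGTCA, the core element of many nuclear receptors, was present at 6 of 98 member summits, 6.12%, beside 4.97% of all pooled and 5.42% of IDR summits. AGTGCA was present at 16, or 16.3%, beside 6.99% and 9.83%. Of these 16, daf-12 had 6, lin-14 had 4, lin-41 had 3 and lin-28, lin-42 and lin-66 had 1 each. AGTTCA, the other DAF-12 hexamer, was present at 14.3% beside 12.6% and 9.32%. GAGAGA was present at 15.3% of member summits, near the 13.9% of all pooled ones, and at 32.9% of IDR summits, and the lin-66 and lin-42 windows printed above are among them.

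Of 32 other genes of the timing pathway, 31 had a pooled summit in the region, with a median best rank of 2912 over these. The 32 comprise 25 protein coding genes, 6 microRNA genes and 1 long noncoding RNA gene. Of all protein coding genes, 66.7% held a pooled summit, with a median best rank of 8926.5 over these. For those with a region of at least 10 kb the values were 95.6% and 5636. These sets were not matched to the 32 genes in region length or gene type. An IDR summit was held by 8 of the 32. All 8 were among the 25 protein coding genes of the list, where 3.57% is the share of all coding genes. When a summit counted for the nearest 5′ end only, 6 kept an IDR summit, beside 2.19% of coding genes. The list was picked with earlier results of these data known, so these shares are a description only. They include parts of the microRNA machinery and its modifiers. The strongest was at puf-9, a Pumilio family RNA-binding protein that acts on hbl-1, at rank 37, 291 bp upstream, and at ranks 30 and 56 in replicates 1 and 2. The exoribonuclease gene xrn-2 had summits at ranks 49 and 523, nhl-2, a cofactor of the microRNA complex, at rank 39, and ain-1, a GW182-type subunit of that complex, at rank 200. In replicates 1 and 2 the stronger xrn-2 summit ranked 59 and 64, and the weaker 193 and 2706. That of nhl-2 ranked 36 and 62, and that of ain-1 ranked 165 and 264. For nhl-2, tim-1 and the stronger xrn-2 summit another coding gene had the nearer 5′ end.

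The partners of lin-42 and daf-12 were also in this set. The Timeless homologue tim-1 ranked 184 with a signal of 47.4, and kin-20, a casein kinase related to Doubletime, had summits at ranks 447 and 569. In replicates 1 and 2 the tim-1 summit ranked 234 and 969. The first kin-20 summit ranked 726 and 1845 there, and the second 503 and 1890. The DAF-12 corepressor gene din-1 ranked 559 with a signal of 29.6, 40 bp upstream of an internal 5′ end, with rank 1206 in replicate 2 and no match in replicate 1. The molting factor myrf-1, needed for lin-4 expression, ranked 320, 280 bp upstream, and at 533 and 332 in the replicates. Among the microRNA genes the best, named after their values were seen, were mir-241 at rank 659 and let-7 at rank 808, below the limit of the IDR list. The mir-241 summit ranked 244 in replicate 2 and had no match in replicate 1. The let-7 summit, 1912 bp upstream, ranked 942 in replicate 1 and 6068 in replicate 2. The sex-determination gene mab-3 was the member of the list without a pooled summit.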

How the data were processed

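Peak lists of 2 biological replicates in 1 group were analysed. As the labels and the deposited inventories state, the authors called relaxed peaks on each replicate and on the pool, against a control, and derived IDR-thresholded peaks. The aligner, the caller, their versions and the IDR cutoff were not given in the sources used here. Signal per peak was taken as the authors deposited it. The −log10 q-value deposited by the authors was read and not used for ranking. Both are values of the peak caller, so a different caller or control would change ranks. The 4 lists on ce11 were used and the 4 on ce10 were not. Peaks were checked to lie inside the WBcel235 chromosomes.

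Summits were assigned to Ensembl release 115 genes and ranked by signal with Python 3.11.15, pandas 2.3.3 and numpy 2.4.6. Only the count of summits in a region, its best rank and the sign of distances were tested on simulated data. Motifs were searched in 100 bp on either side of a summit. The rule for named genes was all 9 members, other listed timing genes with an IDR summit or among the 5 best pooled ranks, genes whose promoter window or span holds a summit printed for a member, and nhr-77. Outside this rule, values were also given for mir-241, let-7 and mab-3, named after these were seen. Members and lists were chosen with earlier results of these data known. Alternatives changed the upstream reach, list length, matching distance, promoter window, gene assignment and the replicate used. No test was made, since a single group was measured. Separate cultures are not described beyond the biological replicate numbers.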

Additional observations from a re-analysis of the deposited data

How the results depend on the processing

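Of 83 alternative values 57 stayed within the limits set for them, 25 moved and 1 changed side of its comparison. These counts do not measure the size of change. With replicate 2 alone, hbl-1 at rank 1636 in place of 5635 counted as within, while lin-66 at 282 in place of 228 counted as moved. Leaving out lin-14 was chosen after seeing the data. It put the share of member summits within the first 3000 at 9.46%, below the 9.88% of coding gene regions, where all 9 genes gave 13.3%. It left 12 summits matched in both replicates. The 3 members with an IDR summit became 2, lin-42 and lin-66, with 1 kb upstream, where 2.88% of coding genes had such a summit. With a single replicate the members numbered between 1 and 3, the lower value being replicate 1 alone. Of coding genes, 3.46% had such a summit with replicate 1 alone and 3.37% with replicate 2 alone. With only the IDR peaks above the median of that list they became 1, lin-66, where 1.89% of coding genes remained. With those peaks the other timing genes fell from 8 to 5 and all coding genes from 713 to 377. The latter numbered 1132 with the 1000 highest pooled peaks and 437 when a summit counted for the nearest 5′ end only. With the 10000 highest pooled entries the member summits numbered 45, or 0.345 per kb. That is 45.9% of the member summits, beside 33.4% of pooled summits in coding gene regions. The median best rank was 3139 with 1 kb upstream, the change coming from lin-41, and 1370 to 2135 with a single replicate. The promoter share was 35.7% with 2000 bp upstream and 8.16% with the longest transcript alone. Matches in both replicates numbered 11 within 50 bp and 29 within 200 bp. For these promoter windows and matching distances, shares over all summits are not given here. Whether members differ from all summits at those settings therefore cannot be read from these values. No paired analysis was possible because there is a single group. Depth limits are unknown, as the lists carry no read counts.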
